A study of Mus musculus with 16 samples.

Results

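Hepatic stellate cells and the fibroblast-like cells around them are the supporting mesenchyme of the liver, and 10 genes that mark them were followed in the mouse fetal liver: Lrat, Ngfr, Pdgfrb, Des, Acta2, Dcn, Reln, Col1a1, Col1a2 and Col3a1. They were chosen by name, as the probe set with 1 gene symbol and the highest mean for each symbol, and 10 of the 19934 genes with such a probe set were members. Each of the 10 had 1 probe set and passed the filter on dim probe sets. The arrays measured total RNA of fetal liver cells in suspension, from mouse embryos at stages E14.5 and E12.5 (days of gestation). At each stage the embryos carried an ERG transgene together with the GATA1s allele (ERG/GATA1s), the GATA1s allele alone (WT/GATA1s in the labels, GATA1s here), the ERG transgene alone (ERG Tg in the labels, ERG here), or neither (wild type, WT). Each of these 8 groups held 2 arrays, one from a sample labelled female and one from a sample labelled male, so 16 arrays in all. The study asked how ERG, an ETS-family regulator of stem cells and megakaryocytes, acts together with full-length GATA1 and with GATA1s, a short form without the first part of the protein. Not given in the sources used here are the transgene's promoter, species and copy number, the mouse strain, and whether GATA1s females carried 1 or 2 copies of the X-linked allele. The labels also do not tell single embryos from pools, and the p-values below therefore reflect only sample-to-sample spread, which may be technical.

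Stellate cells arise from the mesenchyme under the liver's surface layer and come to lie between the hepatocytes and the sinusoids, where they store vitamin A. In the fetus, stellate cells and other perivascular cells are also part of the niche that feeds blood stem cells. Lrat makes the retinyl esters that are stored, Ngfr is the p75 neurotrophin receptor used to isolate these cells, and Pdgfrb is the receptor through which platelet-derived growth factor recruits pericytes. Des (desmin) and Acta2 (smooth muscle alpha actin) are cytoskeletal proteins shared with muscle. Dcn (decorin) is a proteoglycan that binds collagen fibrils, and Reln (reelin) is a secreted glycoprotein best known from the brain that stellate cells also make. Col1a1 and Col1a2 encode the chains of type I collagen, and Col3a1 the chain of type III collagen. The 10 were chosen as genes of the supporting mesenchyme, and whether blood cells in the suspension also make them was not tested.

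The deposited values were log2 signals, and array medians lay between 4.79 and 4.94. Markers of the labelled tissue were high: Alb, the main hepatocyte plasma protein, had signals between 11.98 and 12.22 at E14.5 and between 10.95 and 11.92 at E12.5. In 3 arrays the sex markers (Xist and Y-linked genes) opposed the labelled sex, namely those of the E14.5 ERG/GATA1s sample labelled female and the E12.5 GATA1s and ERG/GATA1s samples labelled male. Labelled sex was a term of the fit, and it cannot remove differences in these groups. The array of the E14.5 WT sample labelled female was the lowest of its stage for 6 of the 10 members. Its mean level of the 9 mesothelial markers was 4.47, against 5.18 in the other E14.5 WT array, and that of the 13 hepatoblast markers 9.76 against 10.6. The array of the E12.5 ERG/GATA1s sample labelled male had the narrowest spread over probe sets, with an SD of 2.01 against 2.12 to 2.26 in the others. In 3 more arrays the sex markers were mixed or in between, those labelled male of E14.5 ERG (Xist 10.03, mean of the Y-linked genes 5.27), E12.5 ERG (5.73 and 5.61) and E12.5 WT (9.35 and 4.95). Whether these samples held embryos of both sexes was not tested. Where leaving out the 3 arrays with opposed sex markers or the 2 arrays that stand apart (E14.5 WT labelled female and E12.5 ERG/GATA1s labelled male) changed a call, the value without them is given below.

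**Figure D1:**
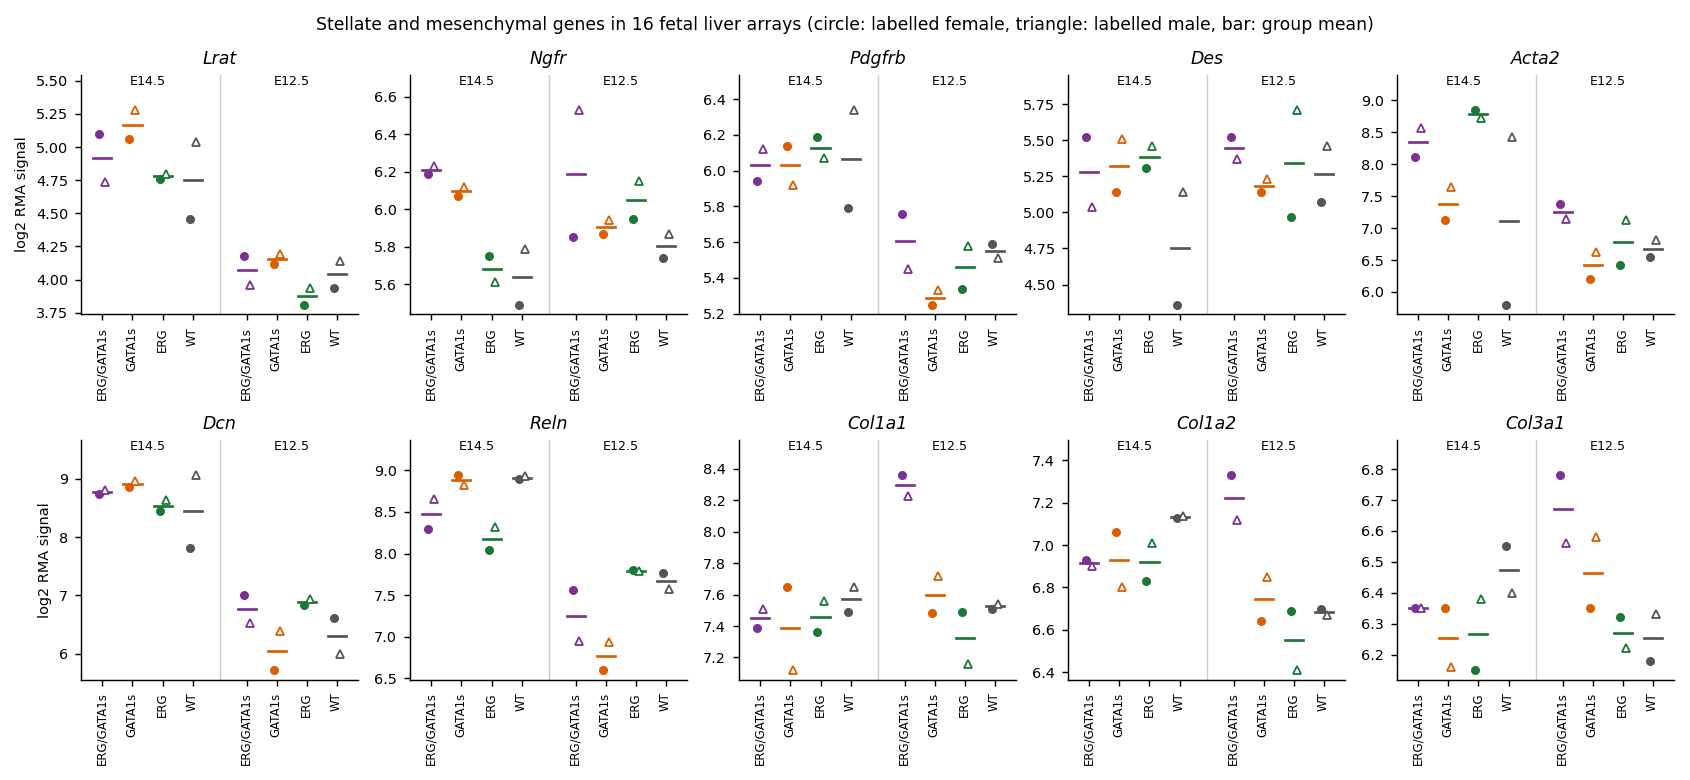
Log2 signal of each of the 10 genes on the 16 arrays (y axis, own scale for each gene), by stage and genotype (x axis). Circles are samples labelled female, triangles samples labelled male, and bars the mean of the 2 arrays. For Lrat, Pdgfrb, Dcn and Reln all 8 E14.5 arrays lie above all 8 E12.5 arrays, while the 3 collagen genes have their highest group mean in E12.5 ERG/GATA1s.

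Stage was the main source of difference among these genes. Among arrays without GATA1s (ERG and WT, 4 arrays at each stage), 6 of the 10 genes rose at E14.5 relative to E12.5 and none fell: Dcn, Acta2, Reln, Lrat, Pdgfrb and Col1a2. Over all 16258 test units, 32.8% were called in limma's test at an adjusted p under 0.05, 21% higher and 11.8% lower. The split of calls over all genes depended on the scaling, with 64% of calls higher as deposited, 47.8% when the arrays were quantile normalized again and 49.1% when each was centred on its median. The median difference was 0.50 for the 10 genes and -0.01 over all test units. Among arrays with GATA1s (ERG/GATA1s and GATA1s), 5 of the 10 rose (Dcn, Reln, Acta2, Lrat and Pdgfrb) and Col1a1 fell, where 42.8% of all test units were called, 22.3% higher and 20.5% lower. There 52.1% of the calls over all genes were higher as deposited, 41.2% after quantile normalization and 39.6% after centring. The median difference there was 0.34 for the 10 genes and -0.04 over all test units. The stages did not overlap for Dcn, Reln, Lrat and Pdgfrb with GATA1s, all higher at E14.5, as for 19.5% of test units. Without GATA1s they did not overlap for these and Col1a2, as for 18.1%. In a suspension of mixed cells, a higher share of stellate cells and more RNA of a gene per cell cannot be told apart.

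The promoter windows of 4 genes are shown, since Acta2, Lrat and Reln rose with stage while Col3a1 passed in neither stage comparison as fitted. Each line is the 250 bases before the RefSeq start on GRCm38.p6, written 5′ to 3′ on the gene's strand, at chr19:34255374-34255623 (minus strand) for Acta2, chr3:82903975-82904224 (minus) for Lrat, chr5:22344706-22344955 (minus) for Reln and chr1:45311288-45311537 (plus) for Col3a1. Capitals mark the motif matches described after the sequences.
Acta2: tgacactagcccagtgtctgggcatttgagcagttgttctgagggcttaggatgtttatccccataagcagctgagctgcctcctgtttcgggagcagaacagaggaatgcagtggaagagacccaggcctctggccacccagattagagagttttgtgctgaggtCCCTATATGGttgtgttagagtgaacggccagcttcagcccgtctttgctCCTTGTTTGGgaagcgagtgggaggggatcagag
Lrat: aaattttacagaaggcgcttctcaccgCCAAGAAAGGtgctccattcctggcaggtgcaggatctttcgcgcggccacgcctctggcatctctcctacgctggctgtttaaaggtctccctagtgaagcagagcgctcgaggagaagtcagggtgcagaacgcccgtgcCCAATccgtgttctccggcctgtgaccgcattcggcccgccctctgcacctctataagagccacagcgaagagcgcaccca
Reln: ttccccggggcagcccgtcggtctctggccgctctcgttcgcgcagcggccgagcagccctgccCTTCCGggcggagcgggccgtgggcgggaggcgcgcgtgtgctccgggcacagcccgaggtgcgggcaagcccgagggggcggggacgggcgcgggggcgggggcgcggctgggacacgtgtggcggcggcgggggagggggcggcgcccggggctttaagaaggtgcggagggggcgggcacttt
Col3a1: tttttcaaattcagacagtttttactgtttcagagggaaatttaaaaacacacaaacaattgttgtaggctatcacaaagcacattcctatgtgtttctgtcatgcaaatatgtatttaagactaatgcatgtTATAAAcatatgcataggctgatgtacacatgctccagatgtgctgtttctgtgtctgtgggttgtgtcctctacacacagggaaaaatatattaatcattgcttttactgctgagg
The motifs searched on both strands were CCAAT, the TATA box TATAAA, the CArG box (the binding motif of serum response factor) exactly and with up to 1 mismatch, the GATA motif as AGATAA or alternatively as TGATAA, and the ETS motif as CGGAAG or alternatively as AGGAAG. Windows of 7 of the 10 genes were searched (Acta2, Col1a2, Col3a1, Des, Lrat, Ngfr and Reln). Those of Pdgfrb, Col1a1 and Dcn were not searched, and nothing is said of them here. No window of the 7 held an exact CArG box, which 1.4% of 27025 promoters hold. With up to 1 mismatch, a form chosen after the exact search, 18.9% of all promoters hold one. Acta2 held a pair of such matches, 84 to 75 and 34 to 25 bases before its start, and its promoter is known in rodents for paired CArG elements. Col1a2 also held a pair, 228 to 219 and 109 to 100 bases before its start, and Lrat held 1, from 223 to 214. The Lrat window also held CCAAT (81 to 77 bases before the start), as 34.5% of promoters do. So did that of Col1a2 (109 to 105), inside its match from 109 to 100. The Reln window, with 80.0% G or C against a median of 52.0% over all promoters, held CGGAAG on the opposite strand (186 to 181), as 13.8% do. The Col3a1 window had 35.2% G or C and held TATAAA (117 to 112), as 13% do. Neither GATA form searched was in the 7 windows, where AGATAA is in 10.3% and TGATAA in 8.16% of all promoters. Other forms of the GATA motif were not searched. The windows also held no AGGAAG, which is in 29.2%. These matches describe letters in these windows and nothing of binding.

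Lrat, which makes the stored retinyl esters, rose at E14.5 relative to E12.5 with and without GATA1s. Its E14.5 signals were 5.10 and 4.74 in ERG/GATA1s, 5.06 and 5.28 in GATA1s, 4.76 and 4.80 in ERG, and 4.46 and 5.04 in WT (in each pair, here and below, the array labelled female comes first). Its E12.5 signals were 4.18 and 3.96 in ERG/GATA1s, 4.12 and 4.19 in GATA1s, 3.81 and 3.94 in ERG, and 3.94 and 4.14 in WT. Every E14.5 array was above every E12.5 array, and the E12.5 signals lay just above 3.74, the level taken as dim. Lrat was 0.93 ± 0.13 (log2 difference ± SE) higher at E14.5 than at E12.5 with GATA1s, 1.91-fold (adjusted p = 9.49e-05, limma), and 0.81 ± 0.13 higher without it, 1.75-fold (adjusted p = 0.000396). Both calls held in all 16 fits that left out 1 array.

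Pdgfrb, the receptor of pericytes and stellate cells, had E14.5 signals of 5.94 and 6.12 in ERG/GATA1s, 6.14 and 5.92 in GATA1s, 6.19 and 6.07 in ERG, and 5.79 and 6.34 in WT. At E12.5 they were 5.76 and 5.45 in ERG/GATA1s, 5.25 and 5.33 in GATA1s, 5.34 and 5.58 in ERG, and 5.59 and 5.51 in WT. The stages did not overlap, though the lowest E14.5 array (WT, labelled female) was close to the highest E12.5 array (ERG/GATA1s, labelled female). Pdgfrb rose 1.50-fold with GATA1s (0.58 ± 0.13, adjusted p = 0.00292) and 1.51-fold without it (0.59 ± 0.13, adjusted p = 0.00302). The call with GATA1s was lost without the 3 arrays with opposed sex markers (0.51, adjusted p = 0.0906).

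Ngfr showed no stage difference that passed the test, with 0.11 with GATA1s (adjusted p = 0.475) and -0.27 without it (adjusted p = 0.097). Its E14.5 signals were 6.19 and 6.23 in ERG/GATA1s, 6.07 and 6.12 in GATA1s, 5.75 and 5.61 in ERG, and 5.49 and 5.79 in WT. Its E12.5 signals were 5.85 and 6.53 in ERG/GATA1s, 5.87 and 5.94 in GATA1s, 5.95 and 6.15 in ERG, and 5.74 and 5.87 in WT. At E14.5 the 4 carriers of GATA1s lay above the 4 other arrays, and at E12.5 the genotypes overlapped. Without GATA1s, all 4 pairs of arrays of the same genotype and labelled sex were lower at E14.5. That difference passed the test when either E12.5 ERG/GATA1s array was left out, with an adjusted p as low as 0.0241. It also passed with each array centred on its median (adjusted p = 0.0378) and without the 3 arrays with opposed sex markers (-0.27, adjusted p = 0.05 after rounding). With GATA1s, the difference was 0.26 without the 2 arrays that stand apart and passed there (adjusted p = 0.0404).

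Des, the intermediate filament protein, was called in neither stage comparison. Its E14.5 signals were 5.52 and 5.04 in ERG/GATA1s, 5.14 and 5.51 in GATA1s, 5.31 and 5.46 in ERG, and 4.36 and 5.14 in WT. Its E12.5 signals were 5.52 and 5.37 in ERG/GATA1s, 5.14 and 5.23 in GATA1s, 4.97 and 5.71 in ERG, and 5.07 and 5.46 in WT. The stages overlapped throughout, with the female-labelled E14.5 WT array lowest. The stage difference was -0.01 with GATA1s (adjusted p = 0.956) and -0.23 without it (adjusted p = 0.315).

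Acta2 had the widest range of the 10 genes at E14.5. Its E14.5 signals were 8.12 and 8.57 in ERG/GATA1s, 7.12 and 7.65 in GATA1s, 8.85 and 8.72 in ERG, and 5.80 and 8.43 in WT. Its E12.5 signals were 7.37 and 7.14 in ERG/GATA1s, 6.21 and 6.63 in GATA1s, 6.42 and 7.13 in ERG, and 6.54 and 6.82 in WT. The female-labelled E14.5 WT array was the lowest of all 16 for this gene, below every E12.5 array, while the other E14.5 WT array was higher than both GATA1s arrays of that stage. Acta2's stage difference was 1.03 ± 0.33 with GATA1s (2.04-fold, adjusted p = 0.0226, higher in 4 of 4 pairs) and 1.22 ± 0.33 without it (2.33-fold, adjusted p = 0.011, higher in 3 of 4 pairs). Without the female-labelled E14.5 WT array the difference without GATA1s was 1.81 (adjusted p = 4.08e-06), and without the male-labelled one 0.64 (adjusted p = 0.00924). The call without GATA1s was lost without the female-labelled E14.5 ERG array and with only the arrays compared (adjusted p = 0.0511, limma). The call with GATA1s was lost without any one of 7 of the 8 GATA1s arrays, the exception being the female-labelled E12.5 ERG/GATA1s array (adjusted p up to 0.125). It was also lost without the 3 arrays with opposed sex markers (0.58), with no sex term, with a Y-linked covariate and with a robust trended eBayes. The stage effect with GATA1s minus that without it was -0.20 for Acta2 (adjusted p = 0.884), and it was -0.91 without the 2 arrays that stand apart (adjusted p = 0.0293).

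Dcn, the collagen-binding proteoglycan, had the largest stage difference of the 10 genes in both comparisons. Its E14.5 signals were 8.74 and 8.81 in ERG/GATA1s, 8.86 and 8.97 in GATA1s, 8.44 and 8.63 in ERG, and 7.82 and 9.06 in WT. Its E12.5 signals were 7.01 and 6.53 in ERG/GATA1s, 5.72 and 6.39 in GATA1s, 6.83 and 6.94 in ERG, and 6.62 and 5.99 in WT. The stages stood well apart, and within E14.5 the female-labelled WT array was the lowest. Dcn rose 5.40-fold with GATA1s (2.43 ± 0.23, adjusted p = 2.77e-06) and 3.71-fold without it (1.89 ± 0.23, adjusted p = 4.99e-05), in 4 of 4 pairs each time. By genotype, the E14.5 mean was higher than the E12.5 mean by 2.01 in ERG/GATA1s, 2.86 in GATA1s, 1.65 in ERG and 2.14 in WT. The difference between the stage effects with and without GATA1s was 0.54 and did not pass the test (adjusted p = 0.471).

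Reln rose at E14.5 in both comparisons, and its stage difference was the only one of the 10 that differed by GATA1s in the test. Its E14.5 signals were 8.29 and 8.65 in ERG/GATA1s, 8.94 and 8.82 in GATA1s, 8.04 and 8.32 in ERG, and 8.89 and 8.93 in WT. Its E12.5 signals were 7.56 and 6.95 in ERG/GATA1s, 6.60 and 6.94 in GATA1s, 7.80 and 7.79 in ERG, and 7.76 and 7.57 in WT. All 8 E14.5 arrays were above all 8 E12.5 arrays, with the highest signals in GATA1s and WT at E14.5 and the lowest in GATA1s at E12.5. Reln rose 3.17-fold with GATA1s (1.66 ± 0.14, adjusted p = 1.29e-06) and 1.76-fold without it (0.82 ± 0.14, adjusted p = 0.00069). The stage difference by genotype was 1.21 in ERG/GATA1s, 2.11 in GATA1s, 0.38 in ERG and 1.25 in WT. The test of the stage effect with GATA1s minus that without it gave 0.85 ± 0.20 (adjusted p = 0.0429), where 2.24% of all test units were called, 1.6% higher. That call was lost in 14 of the 16 fits that left out 1 array, all but those without the female-labelled E12.5 ERG/GATA1s array or the male-labelled E14.5 WT array. Over the 16 fits the difference lay between 0.67 and 1.02 and the adjusted p reached 0.124. The call was also lost without the 3 arrays with opposed sex markers (0.87, adjusted p = 0.177), without the 2 arrays that stand apart (0.68, adjusted p = 0.0547) and under 4 other settings.

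The 3 collagen genes had their highest group mean in E12.5 ERG/GATA1s. Col1a1 signals at E14.5 were 7.39 and 7.51 in ERG/GATA1s, 7.65 and 7.12 in GATA1s, 7.36 and 7.56 in ERG, and 7.49 and 7.65 in WT. At E12.5 they were 8.36 and 8.23 in ERG/GATA1s, 7.48 and 7.72 in GATA1s, 7.49 and 7.16 in ERG, and 7.51 and 7.54 in WT. Both E12.5 ERG/GATA1s arrays stood above the other 14, which overlapped. Col1a1 fell by 0.53 ± 0.13 at E14.5 relative to E12.5 with GATA1s (adjusted p = 0.00506, lower in 3 of 4 pairs). The difference was 0.09 without GATA1s (adjusted p = 0.614). Within genotypes the stage difference was -0.85 in ERG/GATA1s and -0.21 in GATA1s, against 0.13 in ERG and 0.04 in WT. The difference between the stage effects with and without GATA1s, -0.62, did not pass the test (adjusted p = 0.0966), though it did without the female-labelled E14.5 GATA1s array (adjusted p = 0.0429). Without the 3 arrays with opposed sex markers, Col1a1's stage difference with GATA1s was -0.40 (adjusted p = 0.167).

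Col1a2 signals at E14.5 were 6.93 and 6.90 in ERG/GATA1s, 7.06 and 6.80 in GATA1s, 6.83 and 7.01 in ERG, and 7.13 and 7.14 in WT. At E12.5 they were 7.33 and 7.12 in ERG/GATA1s, 6.64 and 6.85 in GATA1s, 6.69 and 6.41 in ERG, and 6.70 and 6.67 in WT. As with Col1a1, the E12.5 ERG/GATA1s pair was the highest of its stage, and without GATA1s the stages did not overlap. Col1a2 rose 1.33-fold at E14.5 without GATA1s (0.41 ± 0.10, adjusted p = 0.00817) and differed by -0.06 with it (adjusted p = 0.637). The rise was not called without the ERG array labelled male of either stage (adjusted p up to 0.0554), 2 arrays whose sex markers were mixed or in between, or after quantile normalization. Col3a1 signals at E14.5 were 6.35 and 6.35 in ERG/GATA1s, 6.35 and 6.16 in GATA1s, 6.15 and 6.38 in ERG, and 6.55 and 6.40 in WT. At E12.5 they were 6.78 and 6.56 in ERG/GATA1s, 6.35 and 6.58 in GATA1s, 6.32 and 6.22 in ERG, and 6.18 and 6.33 in WT. The groups overlapped across stages, with the highest signal again in E12.5 ERG/GATA1s. The Col3a1 stage difference was -0.27 with GATA1s (adjusted p = 0.053) and 0.11 without it (adjusted p = 0.451). The one with GATA1s passed without the male-labelled E12.5 ERG/GATA1s array (adjusted p = 0.034) and without the 2 arrays that stand apart (-0.33, adjusted p = 0.0265). It passed too with no filter, with centring and after quantile normalization (adjusted p as low as 0.00251), each time lower at E14.5.

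**Figure D2:**
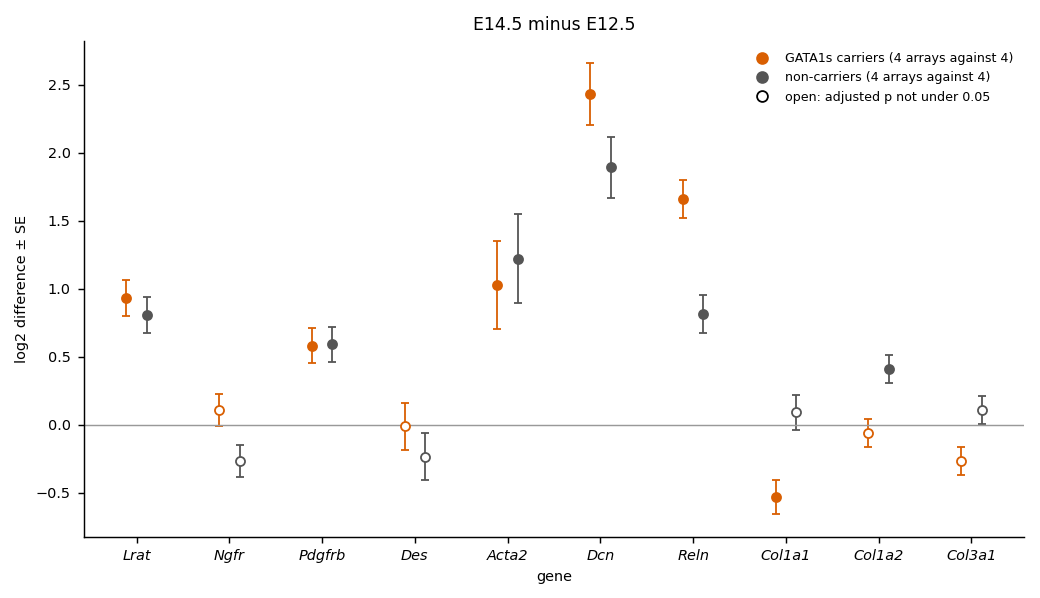
Log2 difference of E14.5 minus E12.5 (y axis, points; bars are ± 1 SE from limma) for each gene (x axis), in GATA1s carriers (left of each pair) and in arrays without GATA1s (right), 4 arrays against 4. Filled points passed at an adjusted p under 0.05. Dcn is highest in both, at 2.43 and 1.89, and Col1a1 is the filled point below 0, at -0.53 in GATA1s carriers.

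Within a stage, the 3 collagen genes varied together over the 8 arrays. Pearson's r at E14.5 and at E12.5 was 0.81 and 0.99 for Col1a1 with Col1a2, 0.65 and 0.89 for Col1a1 with Col3a1, and 0.87 and 0.90 for Col1a2 with Col3a1. Des and Acta2 had an r of 0.72 at E14.5 and 0.82 at E12.5. Lrat and Dcn, which both rose with stage, had an r of 0.84 at E14.5 and -0.43 at E12.5. These values describe 8 arrays that share genotypes and normalization and carry no test.

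At E12.5, carriers of GATA1s differed from non-carriers in 2 of the 10 genes, with Reln lower and Col1a1 higher, where 6.35% of all test units were called, 2.87% higher and 3.48% lower. Reln averaged 7.01 ± 0.40 in carriers and 7.73 ± 0.11 in non-carriers (SD, n = 4 each). Its highest carrier array, at 7.56, was just under its lowest non-carrier array, at 7.57, and 3.82% of test units were lower without overlap. Reln fell by 0.72 ± 0.14 on the log2 scale, 1.64-fold (adjusted p = 0.00971, lower in 4 of 4 pairs). Against WT it was -0.90 in GATA1s (adjusted p = 0.0442), in a comparison with 1.33% of all test units called, 0.511% lower. In ERG/GATA1s it was -0.41 against WT (adjusted p = 0.331). The Reln call in carriers was lost without the female-labelled E12.5 GATA1s array (adjusted p = 0.0698) and without the 3 arrays with opposed sex markers (-0.65, adjusted p = 0.0885). Over the 16 fits that left out 1 array it lay between -0.90 and -0.54. The call of GATA1s against WT was lost in 10 of the 16 fits that left out 1 array, among them those without any of the 4 arrays compared (adjusted p up to 0.427), without the 3 arrays with opposed sex markers (-1.06, adjusted p = 0.173) and under 3 other settings.

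Col1a1 averaged 7.95 ± 0.42 in E12.5 carriers of GATA1s and 7.42 ± 0.18 in non-carriers (SD, n = 4 each). It rose by 0.52 ± 0.13 (1.44-fold, adjusted p = 0.0272, higher in 3 of 4 pairs). Against WT it was 0.77 in ERG/GATA1s (adjusted p = 0.146), in a comparison with 1 test unit called (0.00615%), and 0.08 in GATA1s (adjusted p = 0.865). Col1a2 was 0.54 in ERG/GATA1s and 0.06 in GATA1s against WT (adjusted p = 0.171 and 0.87). Whether ERG and GATA1s together departed from the sum of their single effects was not called for any gene at E12.5. A total of 963 test units had an unadjusted p under 0.05 there, and Col1a1's interaction was 0.90 (adjusted p = 0.821). In carriers against non-carriers, Col1a2 was 0.37 (adjusted p = 0.0517) and Col3a1 0.31 (adjusted p = 0.0968, without overlap between the groups, as for 4.98% of test units). The Col1a1 call was lost without any of 6 arrays of E12.5, the male-labelled ERG/GATA1s array, both GATA1s arrays, the male-labelled ERG array and both WT arrays (adjusted p up to 0.0998). It was also lost without the 3 arrays with opposed sex markers (0.45, adjusted p = 0.287), without the 2 arrays that stand apart (0.54, adjusted p = 0.0511) and with array weights.

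Genes of other cells moved in the same E12.5 comparison. Of 13 hepatoblast markers, 11 were lower and none higher in GATA1s carriers, with mean levels from 8.25 to 8.47 in carriers and from 9.01 to 9.34 in non-carriers. Of 10 megakaryocyte markers, 9 were higher and none lower. Endothelial markers had mean levels from 6.02 to 6.34 in carriers and from 6.09 to 6.31 in non-carriers, and 2 of 12 were higher. Their part in the Reln and Col1a1 differences was not tested.

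At E14.5, Ngfr was the one gene of the 10 called in GATA1s carriers against non-carriers, where 13.4% of all test units were called, 5.87% higher. It averaged 6.15 ± 0.07 in carriers and 5.66 ± 0.14 in non-carriers (SD, n = 4 each), and the groups did not overlap, as for 5.86% of test units on the higher side. The log2 difference of Ngfr was 0.49 ± 0.12, a 1.41-fold rise seen in 4 of 4 pairs (adjusted p = 0.0148). The call was lost without any of 4 arrays of E14.5, the female-labelled ERG/GATA1s array, the female-labelled GATA1s array, the male-labelled ERG array and the female-labelled WT array, with a difference from 0.40 to 0.58 over the fits and an adjusted p up to 0.0934. It was also lost after quantile normalization and with a Y-linked covariate (adjusted p up to 0.0821). Against WT, Ngfr was 0.57 higher in ERG/GATA1s (adjusted p = 0.0475, 9.16% of test units called, 4.47% higher), a call lost in 14 of the 16 fits that left out 1 array and under 8 of the 12 other settings, among them those without the 3 arrays with opposed sex markers and without the 2 arrays that stand apart, and 0.46 in GATA1s (adjusted p = 0.224, 1.07% called). Of 6 markers of nerve and Schwann cells, which also make Ngfr, none was called at E14.5 in carriers. Their mean levels were from 4.01 to 4.26 in carriers and from 3.97 to 4.42 in non-carriers, near the dim level of 3.74. A difference in these markers could thus be missed. Erythroid markers were lower in carriers in 7 of 8 cases, with mean levels from 9.34 to 10.23 in carriers and from 10.26 to 10.76 in non-carriers, and megakaryocyte markers were higher in 8 of 10. The part of these cells in the Ngfr difference was not tested.

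For Lrat, Dcn and Acta2 the E14.5 comparison turned on the WT arrays. Lrat was 0.28 (adjusted p = 0.185) and Dcn 0.36 (adjusted p = 0.359). Without the male-labelled WT array they were 0.42 (adjusted p = 0.0364) and 0.67 (adjusted p = 0.0297). Acta2 was -0.09 (adjusted p = 0.929), but -0.67 without the female-labelled WT array (adjusted p = 0.02) and -0.65 without the 2 arrays that stand apart (adjusted p = 0.00988). Reln was 0.13 higher in carriers (adjusted p = 0.657), with overlapping groups.

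ERG carriers at E14.5 differed from non-carriers in Acta2, which was higher, and Reln, which was lower, where 4.2% of all test units were called, 2.2% higher and 2.01% lower. Acta2 averaged 8.56 ± 0.32 in carriers and 7.25 ± 1.11 in non-carriers (SD, n = 4 each), and the male-labelled WT array, at 8.43, overlapped the carriers. Their log2 difference was 1.31 ± 0.33, a 2.49-fold rise in Acta2 (adjusted p = 0.036, higher in 4 of 4 pairs). The size rested on 1 array: without the female-labelled E14.5 WT array the difference was 0.73 (adjusted p = 0.0184). The call was lost without any of 9 arrays, namely both GATA1s arrays and both ERG/GATA1s arrays of E14.5, the female-labelled E14.5 ERG array, and both WT and both GATA1s arrays of E12.5 (adjusted p up to 0.211). It was also lost without the 3 arrays with opposed sex markers (1.23, adjusted p = 0.256) and under 6 other settings. Smooth muscle contractile genes, such as Tagln and Myl9, were called higher in 1 of 12 cases, with mean levels from 5.95 to 6.16 in carriers and from 5.40 to 6.12 in non-carriers. By sign 10 of the 12 were higher (median 0.15). Skeletal and cardiac muscle markers were called in 0 of 14 cases and were higher by sign in 13 (median 0.18), with mean levels from 4.50 to 5.49 in carriers and from 4.51 to 5.10 in non-carriers. Among these Actc1 ran from 6.41 to 9.64 at E14.5. The part of either muscle list in the Acta2 difference was not tested.

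Reln averaged 8.32 ± 0.25 in E14.5 ERG carriers and 8.90 ± 0.05 in non-carriers (SD, n = 4 each), without overlap, as for 2.39% of test units on the lower side. It fell by 0.57 ± 0.14, 1.48-fold (adjusted p = 0.0355, lower in 4 of 4 pairs). The call was lost without any of 6 arrays of E14.5, the female-labelled ERG/GATA1s array, both GATA1s arrays, the female-labelled ERG array and both WT arrays (adjusted p up to 0.221). It was also lost without the 3 arrays with opposed sex markers (-0.48, adjusted p = 0.0771), with no filter and with centring. Erythroid markers were lower in ERG carriers in 4 of 8 cases, macrophage markers in 4 of 11, and endothelial markers were higher in 2 of 12. Endothelial mean levels ran from 6.76 to 6.92 in carriers and from 6.54 to 6.78 in non-carriers, and the part of these cells in the Reln difference was not tested. In ERG alone against WT, Reln was -0.73 (adjusted p = 0.097, and 0.0476 without the 3 arrays with opposed sex markers) and Acta2 1.67 (adjusted p = 0.103), where 1.69% of test units and none of the 10 genes were called. No member departed from the sum of the single effects at E14.5, where 16 test units (0.0984%) were called.

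At E12.5 no gene at all was called in ERG carriers against non-carriers by limma. An unadjusted p under 0.05 was met by 825 test units, among them Dcn at 0.65, Reln at 0.31 and Ngfr at 0.27. Dcn and Reln were higher in 4 of 4 pairs and Ngfr in 3 of 4. Reln was thus 0.31 in ERG carriers at E12.5 and -0.57 at E14.5, and the difference between these was not tested.

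**Figure D3:**
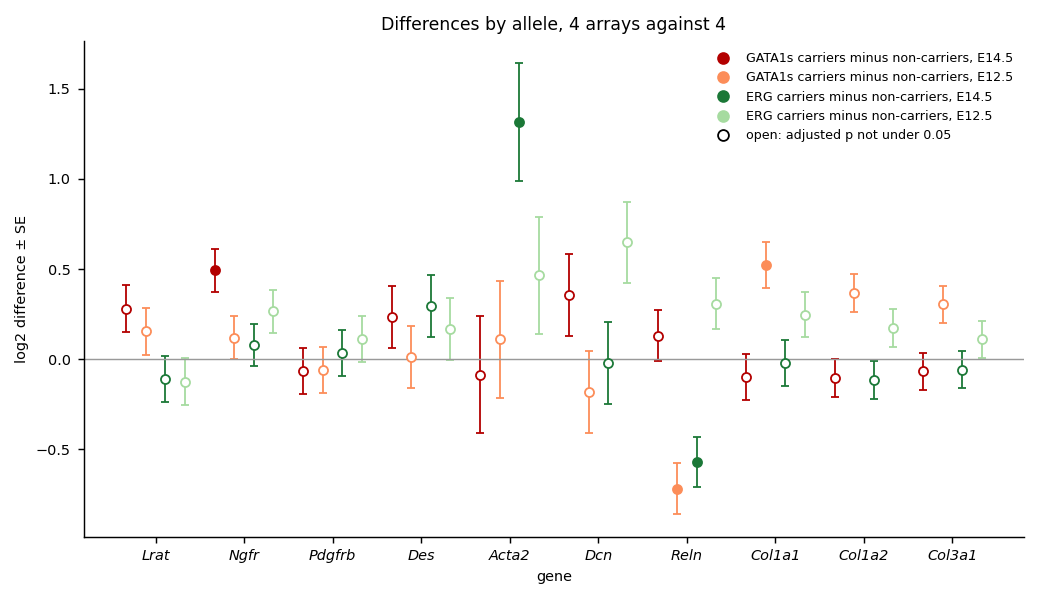
Log2 difference (y axis, points; bars are ± 1 SE from limma) of carriers minus non-carriers of GATA1s and of ERG at each stage, 4 arrays against 4, for each gene (x axis). Filled points passed at an adjusted p under 0.05, namely Ngfr (0.49), Acta2 (1.31), Reln (-0.72 and -0.57) and Col1a1 (0.52).

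Other genes of stellate cells and of the members' pathways were taken from lists, whose counts stand beside the 22.3% of all test units that rose and the 20.5% that fell with GATA1s, and the 21% and 11.8% without it. Of 18 other stellate and pericyte genes, 9 rose and 2 fell at E14.5 relative to E12.5 with GATA1s, and 8 rose and none fell without it. Colec10 and Colec11, collectins of stellate cells, rose by 1.80 and 0.77 with GATA1s and by 2.31 and 0.86 without it. Alcam, an adhesion molecule of the mesenchyme under the liver surface, rose by 2.48 and 1.56. In GATA1s carriers against non-carriers at E14.5, Gfap of this list was -1.02 (adjusted p = 0.000391, limma) and no other was called. At E12.5, Alcam was -0.68 (adjusted p = 0.011) and Gata4 -0.41 (adjusted p = 0.0469). The stage effect with GATA1s minus that without it was -1.06 for Gfap (adjusted p = 0.0133), 0.92 for Alcam (adjusted p = 0.0272) and 0.69 for Gata4 (adjusted p = 0.0409). Hgf, the growth factor stellate cells supply to hepatocytes, was above the level taken as dim on 8 of 8 E14.5 arrays and 0 of 8 E12.5 arrays. It thus passed the filter through E14.5 alone, and its difference is not given. Hgf is nevertheless among the 18 genes and is counted among the 9 that rose with GATA1s.

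Matrix proteins beyond the members rose in 7 of 21 cases and fell in 2 with GATA1s, and rose in 13 and fell in none without it. The list includes Ogn, which was above the level taken as dim on 0 E12.5 arrays and 7 E14.5 arrays. Like Hgf, Ogn passed the filter through E14.5 alone, which favours a rise with stage. Both genes stayed in their lists in both stage comparisons, so the counts of rises can include them. Col14a1, a collagen of the fibril surface, rose by 1.98 with GATA1s and 2.21 without it, and the proteoglycans Lum and Bgn rose by 2.06 and 2.13 with it and by 1.76 and 1.33 without it. The median of this list was 0.03 with GATA1s and 0.43 without it, while the difference was called in 1 gene, Col6a3 (-0.71, adjusted p = 0.0244). Col6a3 and Col6a2, chains of type VI collagen, rose in E12.5 GATA1s carriers by 0.45 and 0.41, in the same comparison as Col1a1. Enzymes that process collagen rose in 10 of 15 cases with GATA1s and 9 of 15 without it, with 1 lower in each. Lox, which cross-links collagen, rose by 1.29 with GATA1s and 1.45 without it. Pcolce, which helps cut procollagen, rose by 1.0 with GATA1s and 0.83 without it. Timp3, an inhibitor of matrix proteases, fell without GATA1s (-1.06), and it was higher in GATA1s carriers by 1.28 at E14.5 and by 0.78 at E12.5.

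Contractile genes of smooth muscle were called in both directions. With GATA1s 3 of 12 rose and 3 fell, and without it 7 rose and 1 fell. Actg2, the other smooth muscle actin, rose by 1.03 without GATA1s, while Srf, the serum response factor gene, fell by 0.71 with GATA1s and 0.83 without it. Of 15 genes of PDGF and TGF beta signalling, 2 rose and 5 fell with GATA1s, and 2 rose and 3 fell without it. Pdgfb, the ligand of the Pdgfrb receptor and a product of megakaryocytes, fell by 0.63 and 0.48 between stages, opposite to its receptor. It was higher in GATA1s carriers by 0.67 at E14.5 (adjusted p = 0.000588) and 0.82 at E12.5 (adjusted p = 0.000996), where Pdgfrb was -0.07 and -0.06 (adjusted p = 0.832 and 0.806).

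The retinoid list, which holds the partners of Lrat, had 3 genes higher and 3 lower of 12 with GATA1s, and 2 higher and 3 lower without it. Rbp4, the plasma carrier of vitamin A made by hepatocytes, rose by 2.26 and 1.04, and the retinoic acid binding proteins Crabp1 and Crabp2 fell by 0.85 and 0.82 with GATA1s and by 0.65 and 0.94 without it. Of 8 genes of the reelin pathway, 1 rose and 2 fell with GATA1s, and 3 rose and 1 fell without it. Vldlr, a reelin receptor, rose in GATA1s carriers at E14.5 by 0.50 (adjusted p = 0.0359). Fyn, a kinase that acts below the receptors, fell there by 0.53 (adjusted p = 0.0116).

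Markers of other cells also shifted with stage. With GATA1s 13 of 13 hepatoblast, 7 of 12 endothelial and 11 of 11 macrophage markers rose, and without it 12, 7 and 8 of them, with none lower. Hepatoblast markers had mean levels from 9.76 to 10.7 at E14.5 and from 8.25 to 9.34 at E12.5, and endothelial markers from 6.54 to 6.92 and from 6.02 to 6.34. Mesothelial markers, of the liver's surface layer, rose in 3 of 9 cases with GATA1s and 1 of 9 without it. Their mean level ran from 4.47 to 5.18 at E14.5 and from 4.63 to 4.89 at E12.5. Of 14 skeletal and cardiac muscle markers, none rose and 1 (Tnnt2) fell with GATA1s, and none was called without it. The part of these cells in the stage differences of the members was not tested.

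**Figure D4:**
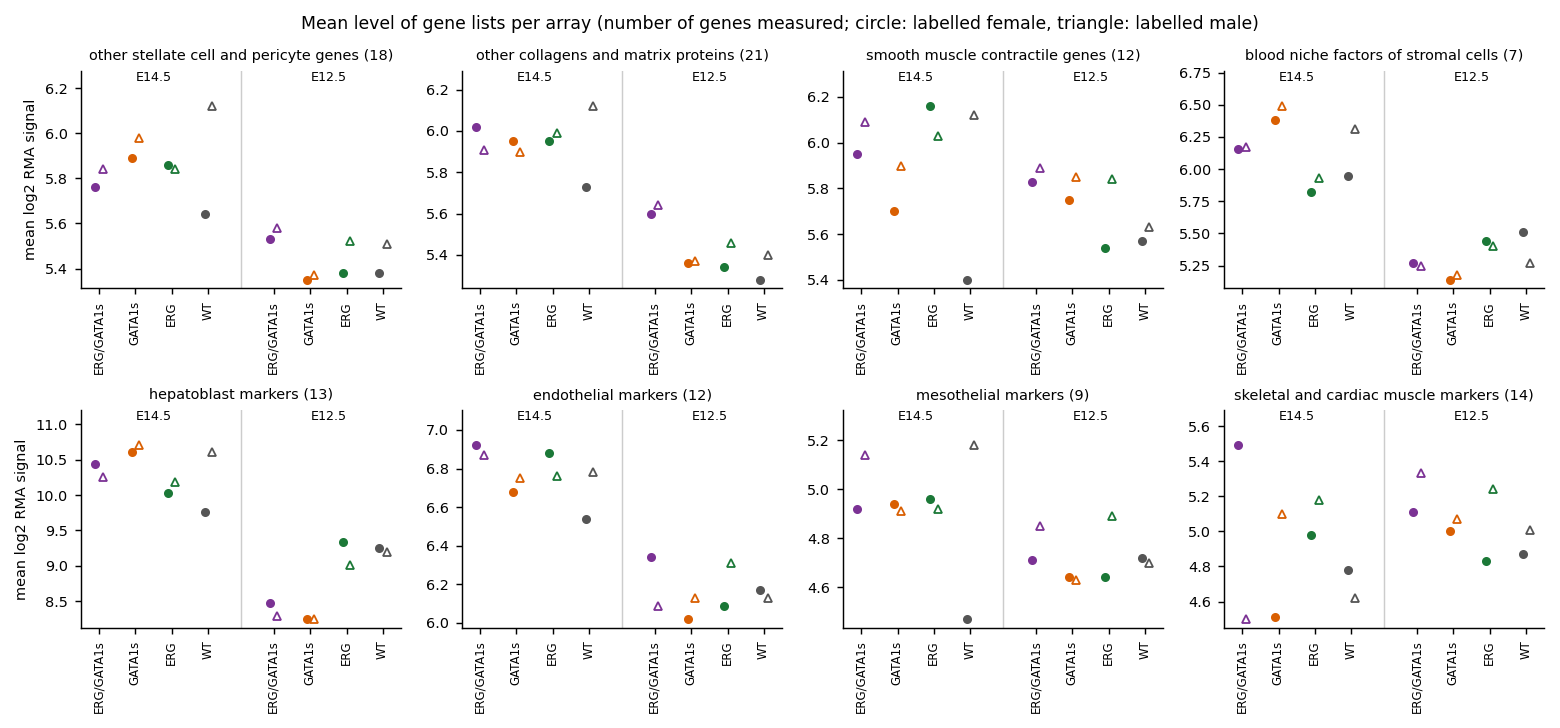
Mean log2 signal (y axis) of 8 gene lists on each of the 16 arrays, by stage and genotype (x axis), with the number of genes measured above each panel. Circles are samples labelled female and triangles samples labelled male. Hepatoblast and endothelial markers are higher on all E14.5 arrays than on all E12.5 arrays, and the female-labelled E14.5 WT array is low for mesothelial markers (4.47) and for smooth muscle genes (5.40).

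Over the 16 arrays, the gene whose level was most like the mean scaled level of the 10 members was Timp2, an inhibitor of matrix metalloproteinases (Pearson's r = 0.893, and 0.769 within E14.5 and 0.871 within E12.5). It was followed by Lamb1 (0.871), Ndufaf3 (0.867), Itga9 (0.859) and Tns2 (0.858), then Mlkl, Niban1, Tgfb3, Gramd3 and Fstl1 (0.845 to 0.853). By Spearman correlation 2 of these 10 were also among the 10 most alike. For single members, Acta2 was most like Actg2 (0.938), Dcn like Pcolce (0.978), Pdgfrb like the basement membrane gene Nid2 (0.949), Lrat like Haao (0.979), Reln like Dusp12 (0.970) and Ngfr like Peli2 (0.896). Col3a1 was most like Col1a1 (0.834), Col1a1 like Eya4 (0.914), Col1a2 like Pilra (0.776) and Des like Unc119b (0.844). Within E14.5, r was -0.054 for Col1a2 with Pilra and 0.65 or more for the other members' pairs. Niban1 had the lowest r with the mean of the members there, at 0.064, against 0.921 within E12.5. By Spearman correlation, only Acta2 and Pdgfrb kept the same most alike gene. These correlations were picked as the highest among all genes tested, over arrays that share stage and genotype, and are a description.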

How the data were processed

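Biotin-labelled total RNA from 16 fetal liver suspensions was hybridised to Affymetrix whole-transcript arrays, per the labels' protocols. The authors deposited log2 signals, 1 for each probe set, which come from RMA according to the submitters' processing notes. No probe build is given, so no probe positions are printed. Of 28270 probe sets, 21780 had 1 gene symbol. The highest-mean probe set per symbol was kept. A level of 3.74, the 30th percentile of the table, had to be passed on 2 or more arrays, which left 16258 test units.

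A single limma model (version 3.58.1, R 4.3.3) gave each of the 8 groups a mean and included a term for labelled sex, leaving 7 residual degrees of freedom (median residual SD 0.1615). Moderated two-sided tests were adjusted by Benjamini-Hochberg over all test units and called at 0.05. The number of arrays limits the precision. Pairs are arrays of the same labelled sex that match in everything but the factor compared. On simulated data, the fit for E14.5 against E12.5 without GATA1s (16258 test units) recovered 92% of simulated 2-fold changes and 74% of simulated 1.5-fold changes. For GATA1s carriers against non-carriers these shares were 95% and 66% at E14.5 and 95% and 72% at E12.5. For the stage by GATA1s difference they were 74% and 32%, so a difference that was not called there says little.

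The members, the gene lists, the tests and the alternatives were chosen with earlier results of these data known. Named genes are the members, the largest called differences of each list (up to 4 per comparison by stage or GATA1s) and the genes most alike in level, with genes added after their values were seen where single arrays or lists are described. Alternatives were other filters, a further quantile normalization, centring, no sex term, a Y-linked covariate, only the arrays compared, array weights, a robust trended eBayes, every probe set, leaving out each array, and leaving out the 3 arrays with opposed sex markers. Leaving out the 2 arrays that stand apart was added after seeing the data. Promoter windows are from RefSeq.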

Additional observations from a re-analysis of the deposited data

Results flagged for a closer look

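Of 40 groups of 4 arrays (10 genes, by stage and by presence of GATA1s), 5 had an array far from the other 3 by Dixon's criterion, and chance alone sets about 5% of groups apart in this way. Ngfr had its highest signal among E12.5 arrays with GATA1s at 6.53, in the male-labelled ERG/GATA1s array (gap over range 0.868). Acta2 had its lowest signal among E14.5 arrays without GATA1s at 5.80, in the female-labelled WT array (0.862). Col1a1 at 7.16 (0.868) and Col1a2 at 6.41 (0.897) were both lowest among E12.5 arrays without GATA1s in the same array, ERG labelled male. Col3a1 was lowest among E14.5 arrays with GATA1s at 6.16, in the male-labelled GATA1s array, where the other 3 arrays had equal values (1.0).

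The stage difference of Reln was larger with GATA1s than without it by 0.85 (adjusted p = 0.0429 in limma's test of the difference itself), and this call was lost without most single arrays, as given above.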

How the results depend on the processing

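The stage calls of Lrat, Dcn and Reln held under every alternative in both comparisons, that of Pdgfrb under all of them without GATA1s. No member's call reversed its direction. With each array left out in turn, the number of members called was 5 to 7 for E14.5 against E12.5 without GATA1s, 5 to 6 with GATA1s and 0 to 1 for their difference. It was 0 to 3 for GATA1s carriers at E12.5, 0 to 3 at E14.5, and 0 to 2 for ERG carriers at E14.5. It was 0 to 1 for GATA1s against WT at E12.5, 0 to 3 for ERG/GATA1s against WT at E12.5, 0 to 1 for ERG against WT, 0 to 2 for GATA1s against WT and 0 to 1 for ERG/GATA1s against WT at E14.5, and 0 to 1 for the interaction at E14.5. The other comparisons stayed at 0.

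Under the other alternatives, the stage by GATA1s difference had 0 members called (1 as reported) with no filter, with centring, with the Y-linked covariate, with all probe sets and without the 3 arrays with opposed sex markers. GATA1s carriers at E12.5 (2 as reported) had 4 after quantile normalization, 1 with arrayWeights, 0 without the 3 arrays and 1 without the 2 arrays that stand apart. GATA1s carriers at E14.5 (1) had 0 after quantile normalization, 0 with the Y-linked covariate and 2 without the 2 arrays. ERG carriers at E14.5 (2) had 0 with no filter and without the 3 arrays. They had 1 with centring, no sex term, the Y-linked covariate, only the arrays compared, trend and robust, or all probe sets. GATA1s against WT at E12.5 (1) had 0 with no filter, only the arrays compared, all probe sets or without the 3 arrays. ERG/GATA1s against WT at E12.5 (0) had 1 with only the arrays compared. ERG against WT at E14.5 (0) had 1 after quantile normalization, with the Y-linked covariate, with arrayWeights or without the 3 arrays. ERG/GATA1s against WT at E14.5 (1) had 0 with no filter, quantile normalization, no sex term, the Y-linked covariate, only the arrays compared, trend and robust, without the 3 arrays and without the 2 arrays. E14.5 against E12.5 with GATA1s (6) had 3 without the 3 arrays, 7 with no filter, quantile normalization or centring, and 8 without the 2 arrays, and without GATA1s (6) it had 5 to 7. The stage by GATA1s difference kept a count of 1 without the 2 arrays, where the gene was Acta2 in place of Reln. The causes were not tested.

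Over all test units, GATA1s carriers at E12.5 had 1032 calls as reported, 317 to 4292 with 1 array left out and 0 to 1355 otherwise. The stage by GATA1s difference had 364, against 150 to 974 and 3 to 532. ERG carriers at E14.5 had 683, against 237 to 777 and 211 to 1058. GATA1s carriers at E14.5 had 2179, against 899 to 2899 and 1073 to 3406. E14.5 against E12.5 with GATA1s had 6962, against 4325 to 8914 and 3160 to 7890. With 2 arrays a group, single-genotype calls are weakly held. Lrat lay near the dim level and Hgf below it at E12.5, where array background limits a difference. The term for labelled sex pairs the arrays across groups, and the fit without it is among the alternatives.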

Other observations

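Factors by which stromal cells keep blood stem and progenitor cells shifted in the same comparisons. Of 7 such genes, 5 rose and 1 fell at E14.5 relative to E12.5 with GATA1s, and 5 rose and 2 fell without it. Over all test units, 22.3% rose and 20.5% fell with GATA1s, and 21% and 11.8% without it. Cxcl12, a chemokine that holds stem cells in their niche, rose by 1.64 and 1.37. Vcam1, an adhesion molecule also found on macrophages, rose by 2.53 and 1.50, and Igf1 by 1.23 and 1.05. Kitl, the ligand of the Kit receptor, rose by 2.44 with GATA1s. In GATA1s carriers it was 0.61 higher at E14.5 (adjusted p = 0.00918) and fell by 1.18 at E12.5 (adjusted p = 0.000994), and the stage effect with GATA1s exceeded that without it by 1.79 (adjusted p = 0.00111). Angpt1, a ligand of the Tie2 receptor, fell by 0.73 between stages without GATA1s and was 0.82 higher in E14.5 GATA1s carriers. It was above the level taken as dim on 6 E14.5 arrays and 8 E12.5 arrays, with a lowest E14.5 signal of 3.25. Hepatoblasts also make some of these factors, and 11 of 13 hepatoblast markers were lower in E12.5 carriers. The part of the hepatoblasts was not tested.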
